A study of Mus musculus with 5 samples.

Results

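Natural killer (NK) cells were taken by a marker gate from single-cell profiles of mouse mammary gland, which gave 771 members among 28588 kept cells and 32472 barcodes. A kept cell had at least 500 detected genes and at most 15% mitochondrial transcripts, counted as unique molecular identifiers (UMIs). Members were chosen by measured transcript counts of the genes named here, so the levels of those genes are no finding. A member held at least 2 UMIs of Ncr1, Klrb1c and Klre1 together and at least 1 of Nkg7. It also held fewer than 2 UMIs of Cd3d, Cd3e and Trac together, fewer than 2 of Cd79a and Cd79b, and none of Epcam. Per 10000 UMIs, a member had under 20 of C1qa, C1qb and C1qc and under 50 of Col1a1, Col1a2, Col3a1 and Dcn. These conditions set aside T cells, B cells, macrophages, epithelium and fibroblasts.

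The glands came from 5 mice, 1 library each, with 3 libraries labelled Frmd3 knockout (KO1, KO2 and KO3) and 2 labelled wild type (WT1 and WT2). FRMD3 is a FERM-domain protein, of the kind that links membrane proteins to the cytoskeleton, and the series title names a role of it in mammary epithelium and the Notch pathway. The labels give no strain, sex, age, reproductive stage or treatment, and do not say which part of the gene was deleted or in which cells. The names KO and WT below stand for these labels, and lists of 5 values give the 3 KO libraries by number and then WT1 and WT2.

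NK cells are innate lymphocytes that kill stressed, infected or transformed cells without prior priming. They release perforin, which opens the membrane of the target, and granzymes, proteases that start its death, and they secrete interferon-gamma. Whether a target is spared is set by inhibitory receptors for MHC class I, which in the mouse include the Ly49 family, against activating receptors that signal through adaptors such as TYROBP. Development runs under the transcription factors EOMES and T-BET (Tbx21). Type 1 innate lymphoid cells (ILC1) are close relatives that live in tissues and share several of these genes.

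The kept cells per library numbered 10366, 4649, 2279, 5061 and 6233, with median depths of 4363, 12987, 6901, 8700 and 12470 UMIs. Members were more even, with medians of 5164, 4772, 4639, 4801 and 5511 UMIs, and 3 of the 771 scored as doublets. Between 3 and 22 barcode sequences were shared by a pair of libraries, and none of them was a member in both libraries. Frmd3 itself stood at 2.12, 3.06 and 1.88 CPM (UMIs of the gene relative to a fixed common total) over all kept cells of the libraries labelled knockout and at 1.45 and 2.33 in those labelled WT, so its level did not separate the labels. The kit reads 3′ ends, and the deleted part is not given, so this does not check the deletion. No member held a Frmd3 UMI (0 of 771 cells, which allows a share of up to 0.389% of cells with a UMI). The P-values below take libraries, not cells, as replicates. Those between genotypes rest on the spread between libraries, and those of NK against T cells on how the difference within a library varies.

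The name was checked on Prf1, the perforin gene (mm10 chr10:61297833-61304680), which the gate does not use. A Prf1 UMI was found in 94.6, 90.8, 82.5, 79.8 and 92.1% of members. Among collagen-rich cells, which should lack it and had median depths of 4163 to 15893.5 UMIs, the share was 0.1 to 2.7%. Members of the 5 libraries held between 37.7% (KO1) and 68.0% (WT2) of all Prf1 UMIs of the kept cells. Il2rb, a receptor chain for IL-2 and IL-15 that NK cells depend on, was found in at least 98.9% of members of every library. The adaptor genes Tyrobp and Fcer1g were each found in at least 95.7%. The markers thus go with the name. Of genes that define T cells, Cd4 and Cd5 had 0 UMIs in all members, Cd8a 4 UMIs in 1 cell, and Cd3g 107 UMIs in 50 cells. The T-cell receptor beta constant gene Trbc1 was found in 66.4 to 78.4% of members and Trbc2 in 24.4 to 40%. Il23r, Il22 and Il17a, a receptor and cytokines of type 17 immunity, had 0 UMIs in all 771 members.

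The threshold of 2 UMIs cut through a continuous range. There were 135 cells with 1 UMI of the NK genes that otherwise met the rule, 172 members with 2 UMIs and 599 with 3 or more. Prf1 was detected in 71.1% of the cells just outside, in 83.7% of those just inside and in 91.8% of the rest. Eomes was found in 52.6, 55.8 and 68.3% of the same 3 sets, at median depths of 4617, 4609.5 and 5445 UMIs.

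Of 22 gene lists, the Ly49 receptors had the highest median difference from T cells, and promoters of 3 of them are shown because the genes lie close together and share sequence. Each is the 250 bases before the annotated start, from RefSeq on GRCm38.p6, read 5′ to 3′ on the minus strand. Klra8 (Ly49H) covers chr6:130129899-130130148, Klra4 (Ly49D) chr6:130067272-130067521 and Klra9 (Ly49I) chr6:130193113-130193362. Capitals mark the longest run that all 3 share, 17 bases.
Klra8: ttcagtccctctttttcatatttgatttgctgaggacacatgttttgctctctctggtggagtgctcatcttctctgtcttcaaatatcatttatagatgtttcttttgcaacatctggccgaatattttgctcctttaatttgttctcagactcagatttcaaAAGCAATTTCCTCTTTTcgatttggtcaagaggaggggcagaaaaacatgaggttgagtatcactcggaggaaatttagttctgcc
Klra4: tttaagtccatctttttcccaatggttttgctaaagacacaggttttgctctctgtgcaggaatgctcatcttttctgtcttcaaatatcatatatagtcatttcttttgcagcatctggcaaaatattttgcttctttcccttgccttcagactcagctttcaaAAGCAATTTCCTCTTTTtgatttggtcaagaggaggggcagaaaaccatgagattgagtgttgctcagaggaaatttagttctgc
Klra9: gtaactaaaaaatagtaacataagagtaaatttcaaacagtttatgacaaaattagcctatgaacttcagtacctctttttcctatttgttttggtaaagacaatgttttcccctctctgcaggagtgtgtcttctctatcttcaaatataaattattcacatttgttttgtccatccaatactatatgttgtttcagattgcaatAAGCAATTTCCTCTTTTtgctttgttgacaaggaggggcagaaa
The run starts 86 bases before the start of Klra8, 85 before that of Klra4 and 44 before that of Klra9. Of 27025 genes in the promoter table, 7 hold it on either strand (0.0259%), and 6 of those 7 are Ly49 genes, out of 11 Ly49 genes in the table. Klra8 and Klra4 matched at 212 of 251 aligned positions (84.5%), while Klra9 matched Klra8 at 154 of 317 (48.6%) and Klra4 at 153 of 317 (48.3%). Positions with a gap count in these totals. The Klra9 window is offset from those of Klra8 and Klra4, as the place of the run shows, which adds gaps. The lower values are thus no measure of how far the sequences differ. The core TCACAC that T-box factors bind was not found on either strand of these 3 windows, while 13.9% of the genes in the table hold it there. Between similar genes of this family, short reads can be assigned to the wrong copy, and the copies present differ between mouse strains, so values of single Ly49 genes are uncertain.

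NK cells made up 0.357, 2.82 and 1.76% of kept cells in KO1, KO2 and KO3 and 1.86 and 7.52% in WT1 and WT2. These shares rest on 37, 131, 40, 94 and 469 members. WT2 was the highest by far and KO1 the lowest, and KO2 lay above WT1, so the genotypes overlapped. The mean was 1.64% ± 1.23 (SD, n = 3) in KO and 4.69% ± 4.01 (SD, n = 2) in WT, a difference of -3.05 percentage points (two-sided exact permutation test, p = 0.2; the 10 splits of 3 against 2 allow no p under 0.1). Without WT2 the difference was -0.214 points, and without WT1 it was -5.88. The number of NK cells per T cell was 0.113, 2.15, 0.769, 0.681 and 2.02, again overlapping (KO minus WT -0.341, exact permutation p = 0.8). The libraries numbered 2 thus held the most NK cells per T cell in both genotypes.

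**Figure D1:**
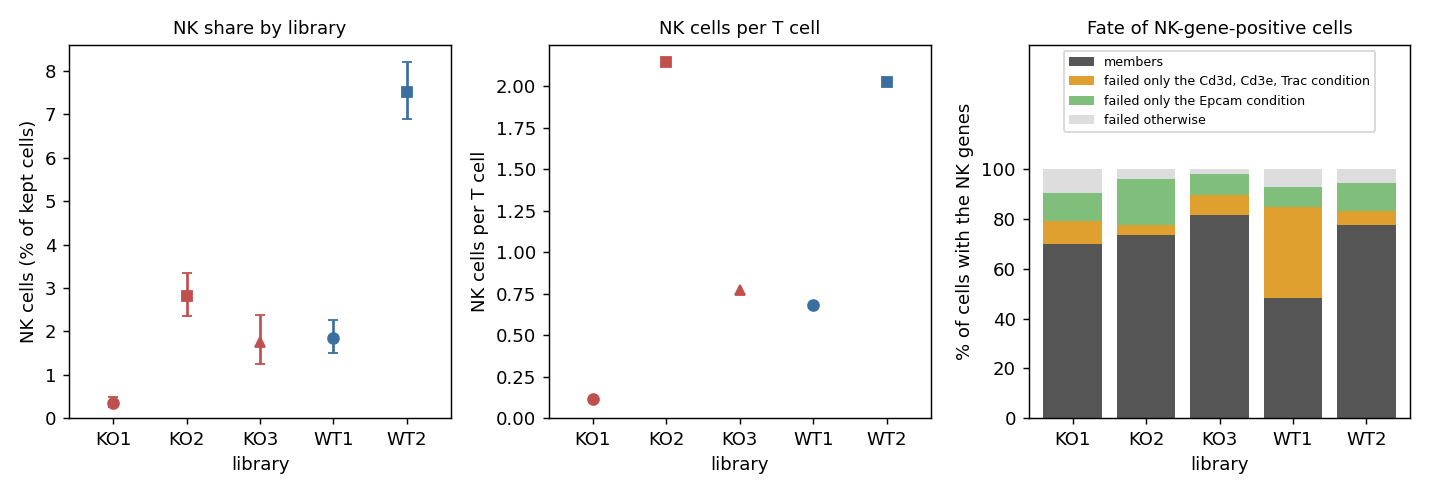
Left, NK cells as a percentage of kept cells in each library with exact 95% binomial intervals, which cover counting error only; centre, NK cells per T cell; right, cells with the NK genes divided by whether they became members or failed a condition. Circles, squares and triangles are libraries numbered 1, 2 and 3, red for KO and blue for WT; WT2 is highest on the left at 7.52%, and WT1 lost the largest part of its NK-gene-positive cells to the T-cell condition.

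The gate treated WT1 differently from the others. Cells that met the NK side of the rule numbered 53, 178, 49, 195 and 605, and 69.8, 73.6, 81.6, 48.2 and 77.5% of them became members. In WT1, 71 cells failed only the Cd3d, Cd3e and Trac condition, against 5, 7, 4 and 35 in KO1, KO2, KO3 and WT2. These 71 cells carried T-cell genes: Cd3g was found in 94.4% of them and Trbc2 in 83.1%, and Cd8a in 28.2%. They also carried Ccl5 in 100% and Gzma in 83.1%, and Eomes in 25.4% against 54.3% of WT1 members. Counting only the T-cell and B-cell conditions, with the epithelial, collagen and macrophage ones dropped, left the difference in NK share at -3.60 points (exact permutation p = 0.3).

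To place the members among lymphocytes, their summed counts were compared with those of 810 T cells (327, 61, 52, 138 and 232 per library) with the library as a block. T cells held at least 2 UMIs of Cd3d, Cd3e and Trac, none of Ncr1, Klrb1c and Klre1, and met the other conditions. Of 5872 genes tested with edgeR, 616 were higher in NK cells (10.5%) and 670 were lower (11.4%) at an adjusted p under 0.05. The 17 genes of the gates were left out of the test, but other lymphocyte genes can follow them. The direction of classical T-cell genes and of NK receptor genes here is thus part of how the cells were chosen. The T-cell gate is itself mixed: in KO1 Ccl5 was found in 9.5% of T cells and Il7r stood at 835 CPM, while Ccl5 was found in 47.5 to 63.0% of T cells elsewhere. CPM values in what follows carry the normalization factors of the fit beside them.

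Receptors led the difference. Klra8, an activating Ly49 receptor, stood at 288, 369, 554, 266 and 199 CPM in NK cells, and 1 UMI was seen in all T cells. The NK-to-T ratio of summed levels was 1377, with an exact 95% counting interval of 247 to 54426. Klra4, also activating, stood at 365 CPM in NK cells on average over the 5 libraries and at 1.54 CPM in T cells (log2 fold change 7.87 ± 0.346 (SE), adjusted p = 8.68e-10). The inhibitory receptor Klrb1b stood at 363 against 1.996 CPM (7.80) and the lectin-like receptor gene Klri2 at 140 against 1.07 CPM (7.63). Of the 11 Ly49 genes, 6 passed the filter and 5 of these were higher in NK cells. The median log2 of the 6 was 5.17 beside -0.03 for all genes tested. Genes nearly absent from T cells passed the filter by their NK counts, so this count is partly set by the filter and the gates. Among 24 other NK receptor genes, 16 were tested, 11 were higher and 1 was lower. Those higher included Klrk1 (NKG2D, an activating receptor for stress ligands; log2 2.93 ± 0.52) and Klrd1 (CD94, partner of the NKG2 receptors; 1.87 ± 0.24).

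The adaptors that pass on these receptor signals followed. Tyrobp (DAP12) stood at 1162, 1512, 1742, 1632 and 1433 CPM in NK cells and at a mean of 27.4 CPM in T cells (log2 6.05 ± 0.672 (SE), adjusted p = 0.00293). Fcer1g, the common Fc receptor gamma chain, stood at 1289 against 40.4 CPM (5.37 ± 0.462). Of 18 adaptor and kinase genes tested, 8 were higher in NK cells and 3 were lower. Sh2d2a, which encodes a T-cell-specific adaptor, was nonetheless higher in NK cells by 0.77 ± 0.16 on the log2 scale. Hcst (DAP10), which pairs with NKG2D, stood at 323 CPM in NK cells and 302 in T cells and did not pass.

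Of the transcription factors, Irf8 stood out by level and by difference. It stood at 2892, 2937, 2076, 2476 and 3157 CPM in NK cells and at a mean of 32.3 CPM in T cells (log2 6.60 ± 0.508 (SE), adjusted p = 0.000105). IRF8 is best known from monocytes, dendritic cells and B cells, and it also takes part in NK cell maturation. Irf8 (mm10 chr8:120736358-120756694) was found in 90.4 to 100% of members, and its level was higher in NK than in T cells in 5 of 5 libraries. Hhex, a homeobox repressor, stood at 148 against 3.51 CPM (5.45 ± 0.331). Of the 18 lineage factors tested, 6 were higher in NK cells and 6 lower. Eomes (3.35 ± 0.29), Tbx21 (1.997 ± 0.37), Nfil3 (1.52 ± 0.20), Id2 (1.32 ± 0.18), Runx3 (1.26 ± 0.13) and Bhlhe40 (0.999 ± 0.26) were higher. Tcf7 (-2.19 ± 0.28), Rora (-1.56 ± 0.38), Gata3 (-0.86 ± 0.21), Tox (-0.84 ± 0.26), Ets1 (-0.60 ± 0.14) and Ikzf3 (-0.58 ± 0.18) were lower.

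Killing genes were shared in part with T cells. Prf1 was higher by 4.36 ± 0.20 on the log2 scale (707 against 35.6 CPM). Gzma stood at a mean of 6619 CPM in NK cells and 502 in T cells, with a fold change of 4.24 ± 1.30 that did not pass (adjusted p = 0.0997, edgeR). Gzmb (2.35 ± 0.68, adjusted p = 0.079) and the chemokine gene Ccl5 (2.39 ± 0.76, adjusted p = 0.097) did not pass either, although each was higher in NK cells in 5 of 5 libraries. All 3 were found in few T cells of KO1 (1.5, 2.4 and 9.5%) and in more T cells of the other libraries. Of 17 granule and killing genes tested, 7 were higher and 2 lower; the inhibitor of granzyme B Serpinb9, which protects the killer cell, was higher by 2.37 ± 0.30. Its relative Serpinb9b was one of the strongest differences (133 against 0.258 CPM, 8.16 ± 0.384), on 2 UMIs in T cells; the ratio of summed levels was 407 with a counting interval of 112 to 3365.

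Maturity genes were higher in NK cells as well. Itgam (CD11b, which marks late NK stages) stood at 141 against 3.51 CPM (5.31 ± 0.281), Cma1, a mast cell chymase gene, at 140 against 1.36 CPM (6.31 ± 0.291), and Itga2 (CD49b) at 124 against 10.1 CPM (3.56 ± 0.31). Of 9 mature NK genes tested, 5 were higher and none was lower; of 9 immature NK genes, 3 were higher and 5 lower. Genes of ILC1 and tissue residency went the other way, with 0 of 11 higher and 7 lower. Cxcr6 stood at 19.5 CPM in NK cells and 186 in T cells (-3.45 ± 0.38) and Cd69 at 68.3 against 191 (-1.67 ± 0.17).

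T-cell genes were lower. Cd5, a brake on antigen receptor signals, had 0 UMIs in members and 770 in T cells, at least 227-fold lower against a floor of 3 UMIs over all members. Il7r, the IL-7 receptor, stood at 186, 16.5, 14.97, 5.86 and 7.15 CPM in NK cells and at a mean of 457 in T cells (-4.33 ± 0.685, adjusted p = 0.0125). KO1 is the exception: 42 Il7r UMIs lay in 6 of its 37 members, 33 of them in 2 cells. The adjusted p of Il7r was 0.0523 without KO2 and 0.0501 without KO3. Bcl11b, a T-lineage factor (-5.35 ± 0.228), Cd6 (-5.23 ± 0.334), Rgs10 (-5.69 ± 0.330), Ramp3 (-5.72 ± 0.210), Tnfrsf4 (OX40; -6.86 ± 0.363), Cd8b1 (-6.84 ± 0.637), Il1rl1 (ST2; -4.38 ± 0.519), Cd3g (-4.14 ± 0.188), Dusp10 (-3.97 ± 0.198) and Ctla4 (-3.81 ± 0.252) complete the named genes. Among further lists, 9 of 16 homing genes were higher in NK cells and 3 lower, 5 of 10 cytokine products higher and 2 lower, 7 of 21 cytokine receptor and JAK-STAT genes higher and 8 lower, and 0 of 15 interferon response genes higher and 6 lower. Higher and lower in NK cells were 0 and 7 of 12 NF-kB genes, 0 and 5 of 12 TGF-beta genes, 2 and 6 of 13 survival genes, 1 and 5 of 19 immediate-early genes and 1 and 4 of 14 heat shock genes. The counts higher and lower were 2 and 4 of 14 cell cycle genes, 0 and 3 of 15 glycolysis genes, 2 and 0 of 15 MHC class I genes, 1 and 1 of 20 oxidative phosphorylation genes and 1 and 1 of 9 Notch genes. With WT2 left out, 648 genes were called in place of 1286, of which 642 were among the 1286.

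**Figure D2:**
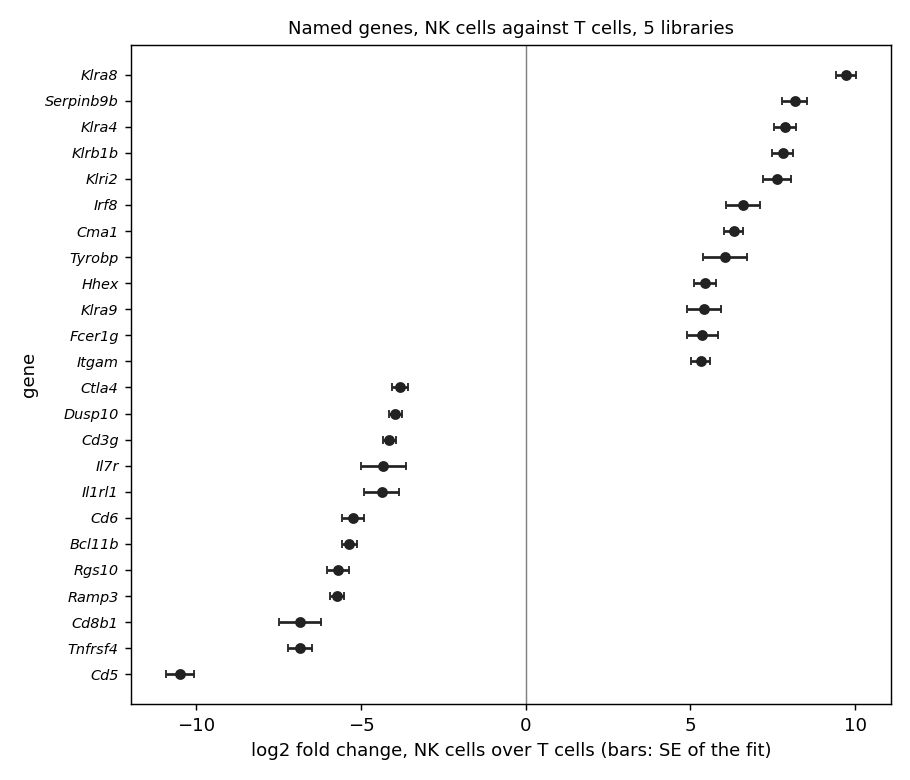
Log2 fold change of the 24 named genes between summed NK cells and summed T cells over 5 libraries, with bars for the SE of the edgeR fit. The 12 genes higher in NK cells lie between 5.31 (Itgam) and 9.72 (Klra8) and the 12 lower ones between -3.81 (Ctla4) and -10.49 (Cd5, which has 0 UMIs in NK cells, so that its fitted value is no bound).

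Interferon-gamma transcripts were spread over NK cells, T cells and others. Ifng (mm10 chr10:118441046-118445892) encodes the cytokine that activates macrophages and induces MHC genes. Ifng UMIs in members numbered 22, 140, 22, 112 and 388, which is 22, 45.9, 30.1, 25.3 and 50.5% of those in kept cells. T cells held 22, 5.9, 16.4, 34.2 and 9.4%. NK cells held more than T cells in KO2, KO3 and WT2, the same in KO1 and less in WT1. The genotypes overlapped (32.7% ± 12.2, SD, n = 3, in KO and 37.9% ± 17.8, SD, n = 2, in WT; difference -5.22 points, exact permutation p = 0.7). Without KO1 the difference was 0.122 points and without WT2 it was 7.34 points, so its sign rests on those libraries.

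Other secreted products differed in how far NK cells were their source. Members held 59.0% of Ccl5 UMIs in KO2 and 59.7% in WT2, and 25.8 to 34.7% in the rest. For Ccl4, a chemokine for T cells and monocytes, the members' part was 0.7 to 10.9%, and for its relative Ccl3 0.4 to 6.4%. Xcl1, which attracts cross-presenting dendritic cells, was found in 45.9, 26.7, 60.0, 50.0 and 25.4% of members. It was thus rarer in the libraries numbered 2, the reverse of Gzmb (62.2, 96.2, 65.0, 72.3 and 92.8%). Tnf was found in 4 of 771 members and Csf2 in 5.

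**Figure D3:**
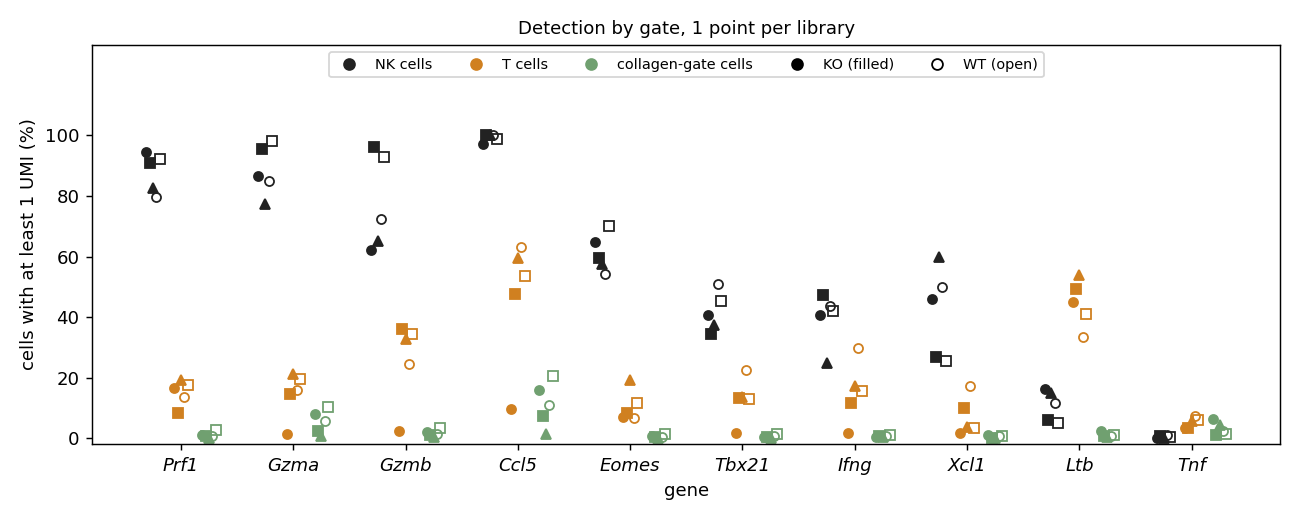
Percentage of cells with at least 1 UMI of each gene in NK cells (black), T cells (orange) and collagen-gate cells (green), 1 point per library, filled for KO and open for WT, with circles, squares and triangles for libraries numbered 1, 2 and 3. Prf1 reaches 79.8 to 94.6% of NK cells and at most 2.7% of collagen-gate cells; Xcl1 and Gzmb separate the libraries numbered 2 from the others in opposite directions.

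Within the members, Ly49 genes combined in a graded way. Of 771 cells, 153 had a UMI of none of the 11 Ly49 genes, 187 of 1, 198 of 2, 144 of 3 and 89 of 4 or more. The median was 2 genes in each library but WT1, where it was 1. Depth can hide a gene in a cell, and a read assigned to the wrong copy can add one, so these counts are uncertain in both directions. Cells with at least 2 UMIs of the proliferation genes Mki67 and Top2a numbered 6, 12, 5, 5 and 35, or 16.2, 9.16, 12.5, 5.32 and 7.46%. Their exact 95% intervals are wide in KO1 (6.19 to 32.0%) and KO3 (4.19 to 26.8%) and overlap those of WT1 (1.75 to 11.98%). Their median depth was 4793 to 13254 UMIs, which was above the median of all members in each library.

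To compare shares of cells at even depth, each member with at least 2000 UMIs (35, 130, 39, 91 and 468 cells) was taken at its expected detection after thinning to 2000 UMIs. A UMI of the mature genes Itgam, Klrg1, S1pr5 or Cx3cr1 was expected in 31.2, 47.7, 25.1, 43.7 and 49.8% of cells, against 0.63 to 6.14% of collagen-gate cells. KO1 and KO3 lay lowest and KO2 between WT1 and WT2. The means were 34.7% ± 11.7 (SD, n = 3) and 46.8% ± 4.32 (SD, n = 2), a difference of -12.1 points (exact permutation p = 0.3). Unthinned, the shares were 56.8, 71.8, 37.5, 64.9 and 78.0%.

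A UMI of the ILC1-associated genes Itga1, Cxcr6, Cd200r1 or Tmem176b was expected in 11.01, 8.36, 5.74, 20.9 and 7.96% of members. WT1 was the highest. Collagen-gate cells reached 23.5, 10.0, 10.9, 15.6 and 9.43%, at or above the members in every library but WT1. Itga1 alone was expected in 4.83, 3.92, 6.44, 4.30 and 3.04% of them, so they are not known to lack these genes. The comparison thus cannot show how much of the members' share is background, and the share is no sure measure of ILC1. The difference was -6.07 points (exact permutation p = 0.5), 0.413 points without WT1 and -12.5 without WT2. Of 148 members with a UMI of these genes before thinning, 69 also had one of Eomes, and 98 also had one of the mature genes.

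Of 28 thinned shares compared between the genotypes, those of 7 did not overlap (25%), and none passed (smallest exact permutation p = 0.1, adjusted p = 0.764). Tbx21 was expected in 16.2, 16.9 and 18.5% of members in KO and in 27.6 and 21.4% in WT. Itga2 was expected in 18.1, 16.8 and 21.2% against 24.4 and 29.9%. Klra4 lay the other way, at 31.3, 25.6 and 41.5% against 23.2 and 19.96%.

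The comparison of summed NK counts between the genotypes called no gene. Of 5639 genes tested with edgeR, 0 passed an adjusted p of 0.05 (0%), 144 had an unadjusted p under 0.05 (2.55%), and the smallest adjusted p was 0.0968. DESeq2 called 0, with 53 at an unadjusted p under 0.05. Library ranges that did not overlap were found for 482 genes higher in KO (8.55%) and 483 lower (8.57%). In counts simulated for this comparison, the fit recovered 92.5% of 4-fold changes over 5614 genes and 21.99% of 2-fold changes over 5613. A change of 2-fold would thus mostly be missed. The simulation gave every gene the same spread between libraries (common dispersion 0.0435). It does not cover genes that vary more, for which larger changes can be missed too. The genes below are values that did not pass.

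Genes with the smallest unadjusted p on the lower side belonged to antigen presentation by MHC class II. Cd74, the invariant chain of MHC class II, stood at 27.6, 23.8 and 20.7 CPM in KO and 97.8 and 83.6 CPM in WT. All WT values lay above all KO values (log2 -1.89 ± 0.326 (SE), unadjusted p = 1.72e-05, adjusted p = 0.0968, edgeR). Its adjusted edgeR p was 0.00516 with no filter on low counts, 9.74e-05 with the replicate number as a block, 0.0451 without WT1 and 0.0206 without WT2. In the last pair of fits the WT arm is 1 library, which is assumed to vary as the KO libraries do. In the fit with the block, KO3 has no WT library of its number and adds nothing to the genotype difference. That difference rests on KO1 with WT1 and KO2 with WT2, so little is left to judge the spread of a gene. The class II chains H2-Ab1 (-2.40 ± 0.466), H2-Aa (-2.12 ± 0.463) and H2-Eb1 (-1.47 ± 0.437) and the lipid carrier Apoe (-1.63 ± 0.417) followed with adjusted edgeR p-values of 0.189, 0.430, 0.9999 and 0.9999. H2-Ab1 passed with no filter (0.0203) and with the block (0.000917), H2-Aa with the block (0.00654), and Apoe with no filter (0.0446), with the block (0.0435) and without WT2 (0.0438). These genes are at home in antigen-presenting cells, and in WT2 single members held much of their signal: 164 of the 246 Cd74 UMIs were in 1 cell, and 207 of the 357 UMIs of the 3 class II genes were in 1 cell. In WT1, where Cd74 was found in 31.9% of members, the highest cell held 10 of 49 UMIs.

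Cells that do not present antigen carried these transcripts too. In collagen-gate cells Cd74 stood at 325, 5.9, 18.3, 102 and 33.6 CPM and in T cells at 81.4, 63.7, 489, 93.4 and 34.8 CPM. The KO3 value of T cells came from the 9.6% of them that held a Cd74 UMI. Members stood at 28.1, 24.4, 19.0, 100.7 and 85.0 CPM on the same scale. NK cells were thus near the collagen-gate cells in KO3 and WT1, far below them in KO1 and above them in KO2 and WT2. When 4 members with at least 10 UMIs of Cd74, of Lyz2 or of smooth muscle genes were left out (3 in WT1 and 1 in WT2), Cd74 stood at 27.5, 23.8, 20.7, 77.7 and 28.0 CPM. The difference was then -0.92 ± 0.470 with an unadjusted edgeR p of 0.0662. Because Cd74 counts helped choose the cells left out, all of them WT, a smaller Cd74 difference followed from that choice. The class II chains H2-Ab1, H2-Aa and H2-Eb1 were not among the genes fitted then. Apoe was at -1.58 ± 0.421 without these cells, with an unadjusted edgeR p of 0.00156. The count of genes called stayed at 0 without these 4 cells.

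Markers of other lineages in the members differed between libraries. The summed level of the 8 macrophage markers was 136, 66.4 and 19.0 CPM in KO and 624 and 127 CPM in WT. The genotypes overlapped there, with KO1 above WT2, and in WT1 174 of the 203 Lyz2 UMIs lay in 1 member. The 8 dendritic cell markers summed to 182, 186 and 167 against 421 and 315 CPM, without overlap. The fibroblast list (150, 179 and 42.8 against 201 and 247 CPM) and the endothelial list (60.8, 35.2 and 33.3 against 177 and 62.2 CPM) did not overlap either. Nor did the basal epithelial and the mast cell or basophil lists, at no more than 8.98 CPM in any library. All of these were higher in WT, and no list was higher in KO without overlap. The 6 pericyte and smooth muscle markers summed to 742 CPM in WT1 and to 4.76 to 37.4 CPM elsewhere, and 339 of the 349 UMIs of Acta2, Tagln and Myh11 in WT1 lay in 1 member. Luminal epithelial markers summed to 136, 446, 76.1, 405 and 308 CPM. The part of these transcripts in the differences below was not tested.

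On the higher side, Fkbp4, a co-chaperone of HSP90, stood at 64.4, 80.7, 135, 31.9 and 47.9 CPM (log2 1.09 ± 0.331). Hspe1 (0.94 ± 0.308) and Hsp90ab1 (0.85 ± 0.282) are chaperones as well, and none of these passed (adjusted p = 0.9999 each, edgeR). Of 13 heat shock genes tested, 0 passed and 13 of 13 had positive values, with a median of 0.85 beside -0.01 for all genes tested. Ranges of 5 did not overlap, all of them higher in KO (background 8.55%). The list was led by KO3: Hsp90aa1 stood at 782, 891, 2224, 683 and 654 CPM. Without KO3 the median was 0.20, and 0.67 to 1.15 without 1 of the others. The heat shock gene Hspa1a stood at 98.2, 8.13, 42.8, 37.0 and 6.22 CPM in NK cells, highest in KO1. The KO1 value rests on 21 UMIs in 2.70% of its 37 members, while 17.5% of KO3 members had a UMI. In KO3 Hspa1a was high in collagen-gate cells (1383 CPM against 112, 68.3, 105 and 59.4) and in Epcam-positive cells (1557 against 186, 233, 155 and 142).

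Klra4 (395, 348, 638, 242 and 272 CPM; 0.81 ± 0.267) and Klra8 (299, 385, 575, 272 and 209 CPM; 0.81 ± 0.273) lay above WT in all KO libraries and did not pass (adjusted p = 0.9999 each, edgeR). KO3 was highest for both. Of 7 Ly49 genes tested 0 passed, 6 had positive values, and the median was 0.78; Klra9 was the negative one (-0.36), with 202, 167, 187, 218 and 249 CPM. The median ranged from 0.39 to 0.71 when 1 library was left out and was 0.16 with no filter on low counts.

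**Figure D4:**
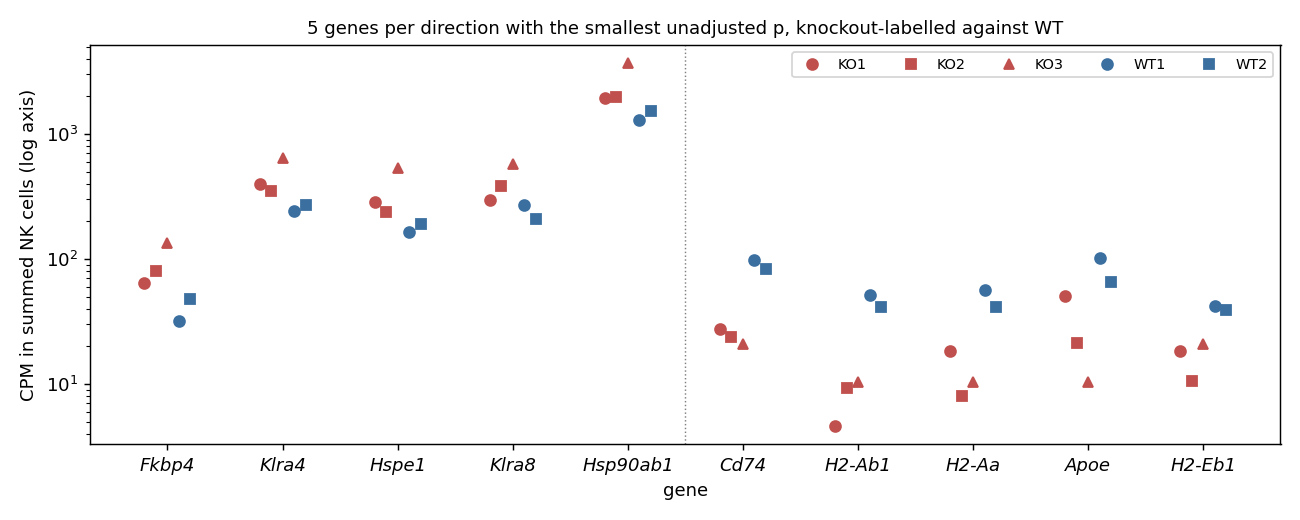
CPM of the 10 named genes in summed NK cells on a log axis, 1 point per library, red for KO and blue for WT, with circles, squares and triangles for libraries numbered 1, 2 and 3. KO values lie above WT values for the 5 genes on the left, with KO3 highest in each, and below them for the 5 on the right; none passed the test.

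No gene of NK identity passed between the genotypes, although ranges of some did not overlap. Lower in KO were 1 of 18 lineage factors, 2 of 11 mature genes, 3 of 17 killing genes and 2 of 18 NK receptor genes (background 8.57%). No gene of these lists was higher without overlap. Of 7 Ly49 genes, 3 were higher and 1 was lower, and of 7 ILC1 genes 1 was higher and 0 lower (background 8.55% higher). Of 9 immature genes none was higher or lower in this sense. Of 18 lineage factors tested 0 passed, with a median of -0.07: Eomes stood at 515, 272, 249, 308 and 357 CPM (0.03), Tbx21 at 96.5, 92.6, 82.9, 160 and 112 CPM (-0.54) and Id2 at 722, 895, 1026, 976 and 1069 CPM (-0.22). Of 11 mature NK genes 0 passed and 11 had negative values, with a median of -0.30; the largest was Itga2 (92.0, 97.9, 135, 142 and 176 CPM, -0.60 ± 0.26). The median of that list was -0.04 without WT2 and -0.61 without KO2. Of 9 immature NK genes 0 passed and 8 had positive values (median 0.22, and 0.02 without KO3, 0.04 without WT2 and -0.04 with the replicate block). Of 17 killing genes 0 passed (median -0.12, and -0.27 to -0.01 with 1 library left out), with Prf1 at 800, 739, 534, 747 and 848 CPM (-0.20), and of 18 NK receptor genes 0 passed (median -0.11, and -0.28 to -0.07).

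Pathways that the series title or the gate's biology bring up gave no call either. Of 10 Notch genes tested 0 passed and all 10 had negative values (median -0.34, and -0.52 to -0.22 with 1 library left out); Notch1 stood at 32.2, 59.5, 51.8, 75.9 and 61.2 CPM, Rbpj, which carries the Notch signal to DNA, at 50.6, 30.4, 36.3, 106 and 36.0 CPM, and the Notch target Nrarp at 73.6, 50.3, 25.9, 83.9 and 53.4 CPM. Of 14 interferon response genes 0 passed (median 0.11, and 0.04 to 0.33 with 1 library left out), and of 15 MHC class I genes 0 passed (median -0.06, and -0.20 to 0.03). The IL-2 and IL-15 receptor gene Il2rb, in a list of 21 cytokine receptor and JAK-STAT genes of which 0 passed, stood at 1678, 1717, 1685, 1779 and 2146 CPM. Of 16 homing and adhesion genes 0 passed and 15 had negative values (median -0.34, and -0.15 without WT2). Ranges of 5 did not overlap, all lower in KO (background 8.57%). Higher (background 8.55%) and lower in KO without overlap were 4 and 2 of 14 interferon response genes. The counts were 6 and 0 of 20 oxidative phosphorylation genes, 3 and 0 of 14 cell cycle genes and 0 and 2 of 10 Notch genes. For MHC class I they were 1 and 2 of 15, for survival 1 and 2 of 10, and for glycolysis 2 and 0 of 14. The cytokine receptor, NF-kB, adaptor and product lists had 1 or 2 each, all lower.

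Immediate-early genes set single libraries apart rather than genotypes, and the size of the TGF-beta response median depended on WT1. Of 18 immediate-early genes 0 passed, and the median was -0.15, 0.42 without WT1 and -0.50 without WT2. Fos, the best-known of them, stood at 175, 50.3, 213, 415 and 26.2 CPM, highest in WT1 and lowest in WT2. Without WT1 its log2 value was 2.32 (adjusted p = 0.000444, edgeR), where it was -0.64 with all libraries; that fit has 1 WT library, and the KO libraries alone give its spread. Skil, a target and brake of TGF-beta signalling, stood at 377, 218, 223, 561 and 245 CPM, again highest in WT1. Of 11 genes of that list 0 passed and 10 had negative values, and the ranges of all overlapped. The median was -0.29, -0.01 without WT1 and -0.65 without WT2. Of 14 cell cycle genes 0 passed, with 12 positive values and a median of 0.43 (0.18 without WT1 and 1.08 without WT2). None of 9 cytokine and chemokine genes passed (median -0.15, and -0.59 to 0.04 with 1 library left out), nor of 16 adaptor and kinase genes (-0.13, and -0.13 to -0.05), 12 NF-kB genes (0.16, and -0.24 to 0.49 with 1 library left out), 14 glycolysis genes (0.12), 20 oxidative phosphorylation genes (0.11, and 0.05 to 0.23) or 10 survival genes (0.01, and -0.10 to 0.10). The 7 ILC1 genes tested had a median of 0.32, which was 1.35 without WT1 and -0.64 without WT2.

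**Figure D5:**
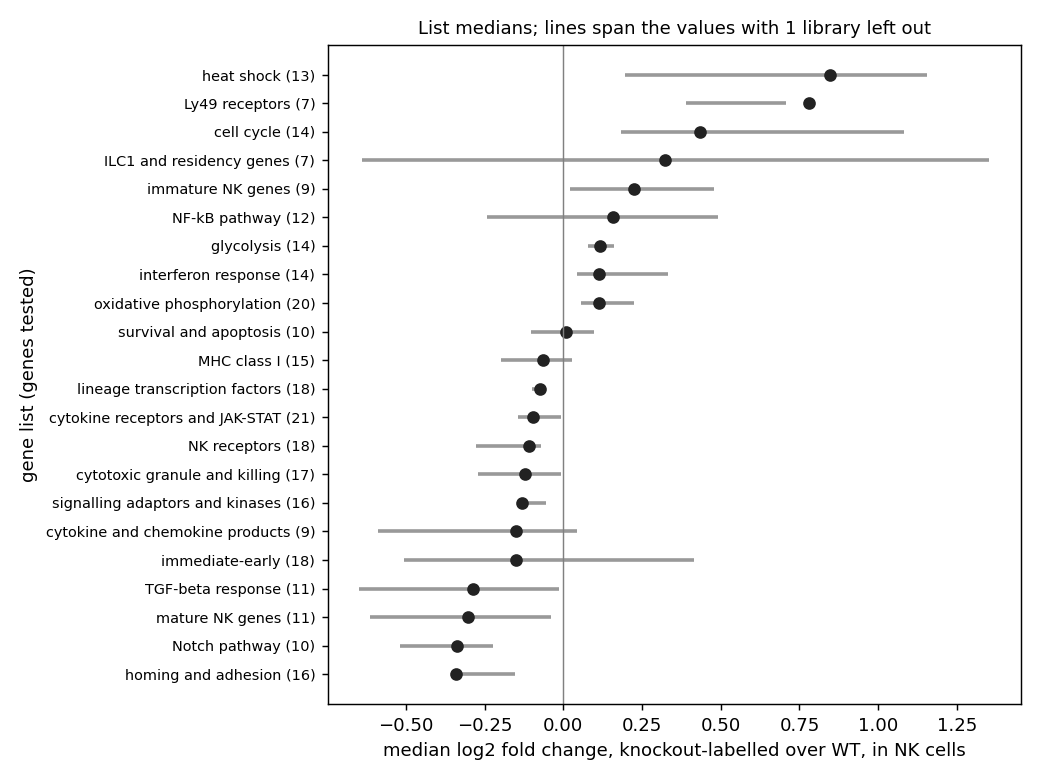
Median log2 fold change, KO over WT, of each gene list in summed NK cells (points, with the number of genes tested in brackets); grey lines span the values with 1 library left out in turn. Heat shock (0.85) and Ly49 receptors (0.78) have the highest medians and homing and adhesion (-0.34) the lowest, and the ILC1 list spans both signs.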

How the data were processed

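Whole mammary gland of 5 mice was profiled with the 10x Genomics 3′ kit. The authors deposited raw UMI counts per gene and barcode, made with Cell Ranger 6.0.2 (6.1.2 for KO3) per the file headers, on mm10 per the submitters' processing notes. Neither an annotation release nor a cell-calling rule is stated in the sources used. Totals per library ran from 24197344 to 87577099 UMIs.

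The members and gene lists were chosen with earlier results of these data known. Counts were summed over cells per library and tested with edgeR 4.0.16 (quasi-likelihood, TMM, filterByExpr, Benjamini-Hochberg adjustment over all genes tested, threshold 0.05) in R 4.3.3, with DESeq2 1.42.0 as an alternative. The 17 gate genes were left out of the tests. CPM values printed with a fold change carry that fit's TMM factors, and other CPM values do not. For shares, libraries were compared by an exact permutation test, two-sided (10 splits, scipy 1.17.1). Thinning to 2000 UMIs used the expected share over all draws; this replaced 1 random draw after its values had been seen. Doublets were scored by simulated neighbours and kept in, with their removal as an alternative. Both edgeR fits were tested on simulated data with the same dispersion for all genes. Intervals are exact 95% binomial and cover counting error only.

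Named genes were, for NK against T cells, the 12 with the largest change per direction among genes that passed, changed the same way in all 5 libraries and had a mean of at least 100 CPM in the higher type, and for KO against WT, where none passed, the 5 per direction with the smallest unadjusted p at 20 CPM or more in the higher group. Up to 4 genes of highest level were named per list, and any member of the lists of factors, maturity, ILC1, products and granules. Genes of the label check, the T-cell receptor and Frmd3, and those named for cells rich in other RNA, were chosen after their values were seen. Alternatives covered the cell filters, the gate, doublets, scaling, the low-count filter, the replicate block and each library left out.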

Additional observations from a re-analysis of the deposited data

How the results depend on the processing

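The limits come from 3 libraries against 2, from 37 and 40 members in KO1 and KO3, and from WT2, which holds 469 of 771 members. The difference in NK share (KO minus WT) ran from -5.88 to -0.214 points with 1 library left out, the share of Ifng UMIs from -17.8 to 7.34 (0.122 without KO1), and the share of cells with an ILC1 gene from -12.5 to 0.413. Without thinning the ILC1 value was -12.6 (exact permutation p = 0.1). Genes called between KO and WT numbered 5 with no filter on low counts, 9 with the replicate number as a block, 0 with DESeq2 and 0 to 22 with 1 library left out (4 without WT1, 22 without WT2). Deviations of same-numbered libraries correlated at 0.085 and 0.216, over 2 pairs, and the labels do not say what the numbers share. KO3 with WT1, which differ in number, reached 0.097. With 2 WT libraries, a KO library's value against WT2 is the negative of that against WT1. These correlations therefore cannot show whether libraries of the same number share anything. Under the replicate block, where KO3 has no partner and adds nothing to the genotype difference, the median of heat shock genes was 0.20. Without KO3 it was 0.20 as well. Between NK and T cells, 831 genes were called with DESeq2 and 830 with no library block, where 1286 were called with it, and 648 to 1502 with 1 library left out. Their share higher in NK cells was 47.9%, and 56.0% without WT2. Of the other comparisons of these 6 results, 49 kept their direction and side. The cause of these changes was not tested.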
